A study of Mus musculus with 6 samples.

Results

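The BCL2 family decides at the mitochondrial outer membrane whether a stressed cell dies. Its BH3-only proteins carry stress signals, the effectors BAX and BAK1 form the pores that release cytochrome c, and the antiapoptotic proteins BCL2, BCL-xL (the product of BCL2L1) and MCL1 bind and restrain both. In fibrotic tissue the balance between these proteins is known to bear on whether activated fibroblasts persist or are cleared. The 10 genes described here are 5 BH3-only genes (BMF, BBC3, BCL2L11, PMAIP1 and BID), the effectors BAX and BAK1, and the antiapoptotic BCL2, BCL2L1 and MCL1. They were taken by gene symbol from the 20323 rows of the deposited table, where each symbol had a single row, and 9 of the 10 had enough counts to be tested.

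The study sequenced RNA of a kidney fibroblast line called RFB in 6 libraries. CXCL10, the chemokine ligand of the receptor CXCR3, was given with TGF-β to the cells of 3 libraries, and the cells of the other 3 had TGF-β alone, the cytokine that turns fibroblasts into matrix-producing myofibroblasts. By their treatment labels all 6 libraries thus come from TGF-β-treated cells and none from untreated cells. The titles call the libraries with TGF-β alone NC, without spelling it out. The labels give no TGF-β dose, no treatment time and, for CXCL10, a volume of 5 µl without a concentration. The series text speaks of a SUV39H1 knockdown, which no sample label names, and the labels do not say whether the line is a clone or whether replicates were separate cultures, so that p-values may measure technical spread only.

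Library totals were 14470051, 12838106 and 13547550 counts with CXCL10 and 14266272, 15587409 and 13068015 counts with TGF-β alone. The labels name mouse as the organism, yet all 20323 rows carry human Ensembl identifiers, so levels refer to human gene models. Of 11 fibroblast markers 11 averaged at least 5 CPM (counts scaled to the size of the library), with a summed level of 50641 to 54953 CPM with CXCL10 and 52997 to 60458 CPM without. Among 11 tubule epithelial markers 5 had 0 counts in all libraries (CDH16, LRP2, SLC34A1, AQP2 and UMOD), and the sum was 12.0 to 13.6 CPM with CXCL10 and 15.3 to 16.8 CPM without. Of 8 leukocyte markers 3 were at 0, with a sum of 41.0 to 47.4 CPM with CXCL10 and 41.3 to 46.3 CPM without. Podocyte markers summed to 443 to 505 CPM with CXCL10 and 318 to 438 CPM without, with NPHS1 at 0. The part of these markers in the results was not tested.

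Both libraries numbered 1 stood apart from their groups, in the same direction. This was read on the first principal component, the axis of largest spread between libraries. TGF-β replicate 1 lay there at -5.54, and TGF-β replicates 2 and 3 at 28.3 and 29.5. CXCL10 replicate 1 lay at -32.8, and CXCL10 replicates 2 and 3 at -9.78 and -9.67. The same axis also separated the groups, with all CXCL10 libraries below TGF-β replicate 1. By distance over all tested genes on the log2 CPM scale TGF-β replicate 1 lay 39.7 to 45.8 from the CXCL10 libraries. Its distances to TGF-β replicates 2 and 3 were 48.7 and 49.5. The call of each member that passed the paired fit is therefore given with libraries paired by their replicate number, unpaired, and without TGF-β replicate 1. The pairing was taken from these same data, as the labels give none, and the unpaired fit is the principal one.

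The 4 members with the largest changes were BH3-only genes, and they did not move as one. With CXCL10, BMF, BBC3 and BCL2L11 fell and PMAIP1 rose in the paired fit, while BID did not pass. Among the others only MCL1 passed, by a small rise. In all, 2 members rose and 3 fell of the 9 tested, with an adjusted p below 0.05 as the threshold (quasi-likelihood test of edgeR, Benjamini-Hochberg adjustment over 11970 genes). Of all tested genes 17.7% passed, 9.71% upward and 8.04% downward. Because the members were chosen with earlier results of these data known, the members' share was given no test against that background. The median paired log2 change was -0.82 over the 5 BH3-only genes, 0.04 over the 9 tested members and -0.01 over all tested genes.

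None of these calls held in the unpaired edgeR test, which called 0 of the 9 members and 0 of all tested genes (0%). At an unadjusted p under 0.05 it had 4 of the 9 members and 20.5% of all genes. Unpaired DESeq2 called BBC3 alone of the members, against 3.41% of the genes it adjusted; it gave BMF an adjusted p of 0.073 and BCL2L11 none. Without TGF-β replicate 1, the unpaired edgeR test called the same 5 members in the same directions, beside 19.3% of all genes. Without any other single library it called 0 members and 0 genes. TGF-β replicate 1 was singled out for lying nearer the CXCL10 libraries. Leaving it out widens the gap between the groups by construction, so those calls are no independent support. In bulk RNA, fewer cells expressing a gene and less RNA per cell cannot be told apart.

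**Figure D1:**
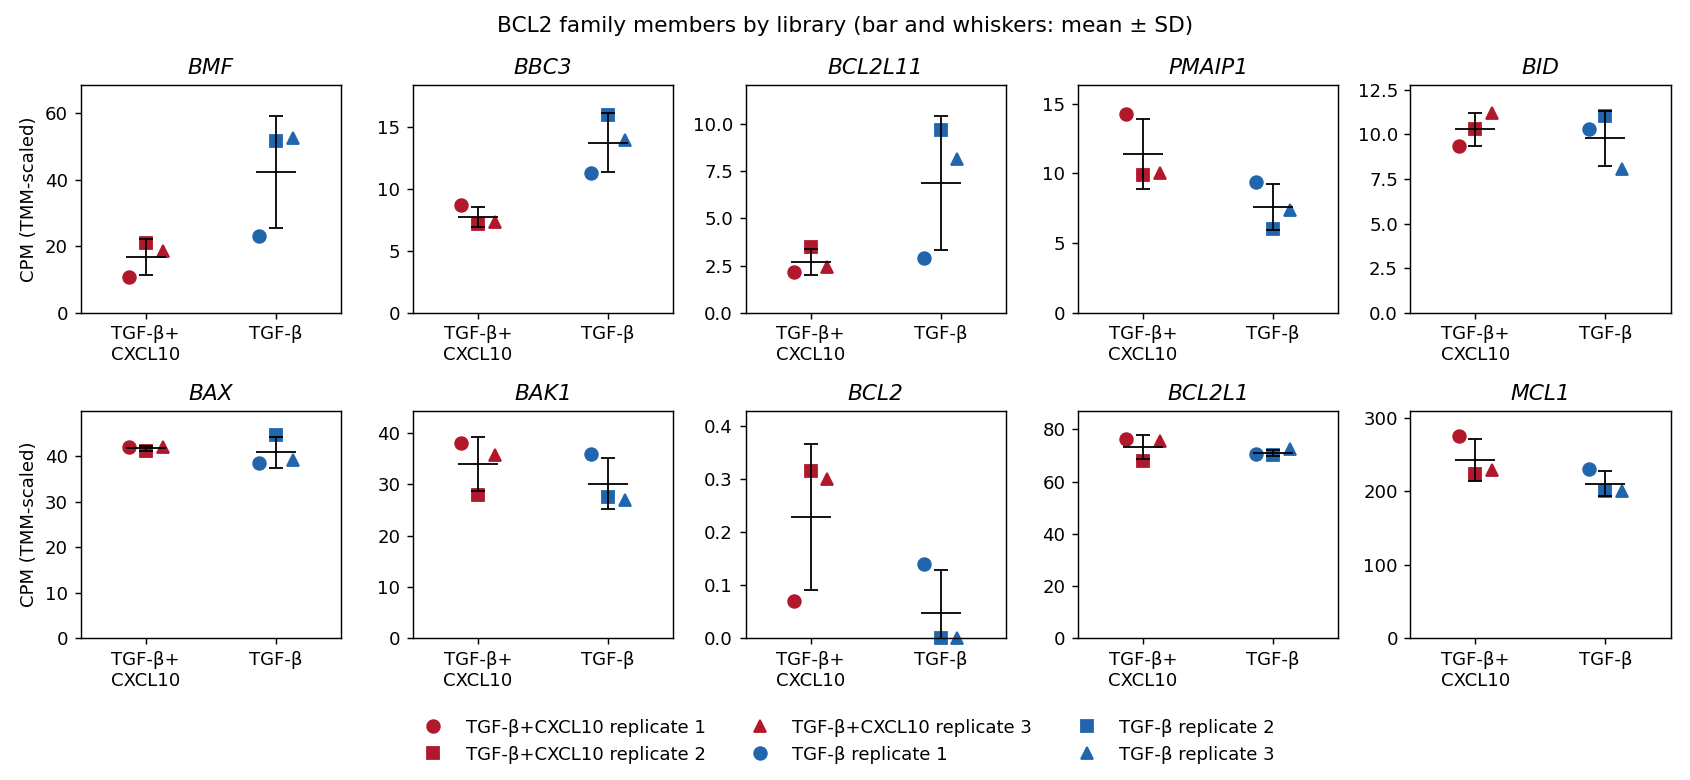
Level of each of the 10 members in CPM after TMM scaling, with the 3 TGF-β+CXCL10 libraries (red) left of the 3 TGF-β libraries (blue); marker shapes give the replicate number, and the bar and whiskers the mean ± SD. In BMF and BCL2L11, TGF-β replicate 1 lies far below the other TGF-β libraries, at 23.0 and 2.89 CPM.

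BMF encodes a BH3-only protein that is held on the actin motor complex of myosin V through dynein light chain and is known to be released when cells detach. Its level was 10.8, 20.9 and 18.7 CPM in CXCL10 libraries 1 to 3, against 23.0, 51.6 and 52.7 CPM in TGF-β libraries 1 to 3. The groups did not overlap, as for 11.2% of all tested genes in the downward direction. The gap between the highest CXCL10 library and TGF-β replicate 1 was narrow, and in the deposited FPKM given below the groups overlapped. BMF fell by 1.31 on the log2 scale in the paired fit (SE 0.10, 95% interval -1.52 to -1.10, adjusted p = 6.51e-06, edgeR). It was lower in 3 of 3 same-numbered pairs, by -1.08, -1.30 and -1.48.

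For BMF replicate 1 was the lowest library of each group: it differed from the mean of the others by -0.87 on the log2 scale within the CXCL10 group and by -1.18 within the TGF-β group. Unpaired, the BMF change was -1.34 (SE 0.32, adjusted p = 0.161, edgeR), and without TGF-β replicate 1 it was -1.64 (adjusted p = 0.000632, edgeR). Of all tested genes 1.04% had a paired log2 change of -1 or below. Over the 10 paired fits run (edgeR with other settings, DESeq2 and limma-trend included) the adjusted p of BMF lay between 3.83e-25 and 0.0208. The lowest came from the edgeR fit without both libraries of replicate 1, which has fewer libraries and is no stronger evidence.

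BBC3 encodes PUMA, a BH3-only protein that binds all antiapoptotic members. It stood at 8.72, 7.19 and 7.34 CPM in CXCL10 libraries 1 to 3, against 11.3, 16 and 14 CPM in TGF-β libraries 1 to 3. Every CXCL10 library was below every TGF-β library, as for 11.2% of all tested genes. The paired log2 change was -0.82 (SE 0.16, 95% interval -1.16 to -0.47, adjusted p = 0.00355, edgeR), and the unpaired one -0.83 (adjusted p = 0.161).

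The same-numbered pairs of BBC3 differed by -0.36, -1.14 and -0.92, so the first pair showed the smallest difference. Without TGF-β replicate 1 the unpaired change was -0.95 (adjusted p = 0.0024, edgeR). BBC3 was the only member past the threshold in the authors' deposited table, with a log2 ratio of -0.85 and an adjusted p of 0.0222, where 1.33% of genes passed. The p-values of that table equal those of unpaired DESeq2, so its call adds no second test. Over the 10 paired fits the adjusted p of BBC3 lay between 9.10e-07 and 0.0493, the highest in limma-trend. The lowest again came from the edgeR fit without both libraries of replicate 1.

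BCL2L11 encodes BIM, which binds all antiapoptotic members and can activate BAX directly. Its counts were low, at 31, 44 and 32 in CXCL10 libraries 1 to 3 and 41, 155 and 108 in TGF-β libraries 1 to 3. In scaled values this was 2.18, 3.48 and 2.40 CPM with CXCL10, against 2.89, 9.65 and 8.12 CPM with TGF-β alone. The groups overlapped, since TGF-β replicate 1 lay below CXCL10 replicate 2.

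In the paired fit BCL2L11 fell by 1.27 on the log2 scale (SE 0.27, 95% interval -1.85 to -0.70, adjusted p = 0.00516, edgeR). Its pairs differed by -0.38, -1.44 and -1.70, and within the TGF-β group replicate 1 differed from the others by -1.57, more than the paired change itself. Unpaired, the change was -1.37 (adjusted p = 0.161), and without TGF-β replicate 1 it was -1.73 (adjusted p = 0.00124, edgeR). The call was lost in the paired fit without both libraries of replicate 3 (-1.01, adjusted p = 0.0752, edgeR) and in limma-trend on log2(FPKM + 1) with pairing (-0.74, adjusted p = 0.139), which called 5.76% of all genes.

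PMAIP1 encodes NOXA, a BH3-only protein that binds MCL1 above all and is known to promote its degradation. PMAIP1 stood at 14.3, 9.88 and 10 CPM in CXCL10 libraries 1 to 3, against 9.37, 6.04 and 7.36 CPM in TGF-β libraries 1 to 3. The groups did not overlap, as for 11.1% of all tested genes in the upward direction, and replicate 1 was the highest library of each group. It rose in the paired fit by 0.59 (log2; SE 0.15, 95% interval 0.27 to 0.90, adjusted p = 0.014, edgeR), with pairs at 0.60, 0.70 and 0.44.

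The unpaired change of PMAIP1 was also 0.59 (adjusted p = 0.183, edgeR), and without TGF-β replicate 1 it was 0.78 (adjusted p = 0.0241). Its paired call was lost with DESeq2 (adjusted p = 0.133; 10% of genes called), with limma-trend on log2(FPKM + 1) (adjusted p = 0.0709) and in edgeR without both libraries of replicate 2 (0.53, adjusted p = 0.0628).

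BID, which caspase-8 cleaves to link death receptors to mitochondria, stood at 9.35, 10.3 and 11.2 CPM with CXCL10 and at 10.3, 11 and 8.04 CPM with TGF-β alone. The groups overlapped. The paired log2 difference was 0.07 (95% interval -0.26 to 0.41, adjusted p = 0.804, edgeR), which leaves changes within these bounds in either direction possible.

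**Figure D2:**
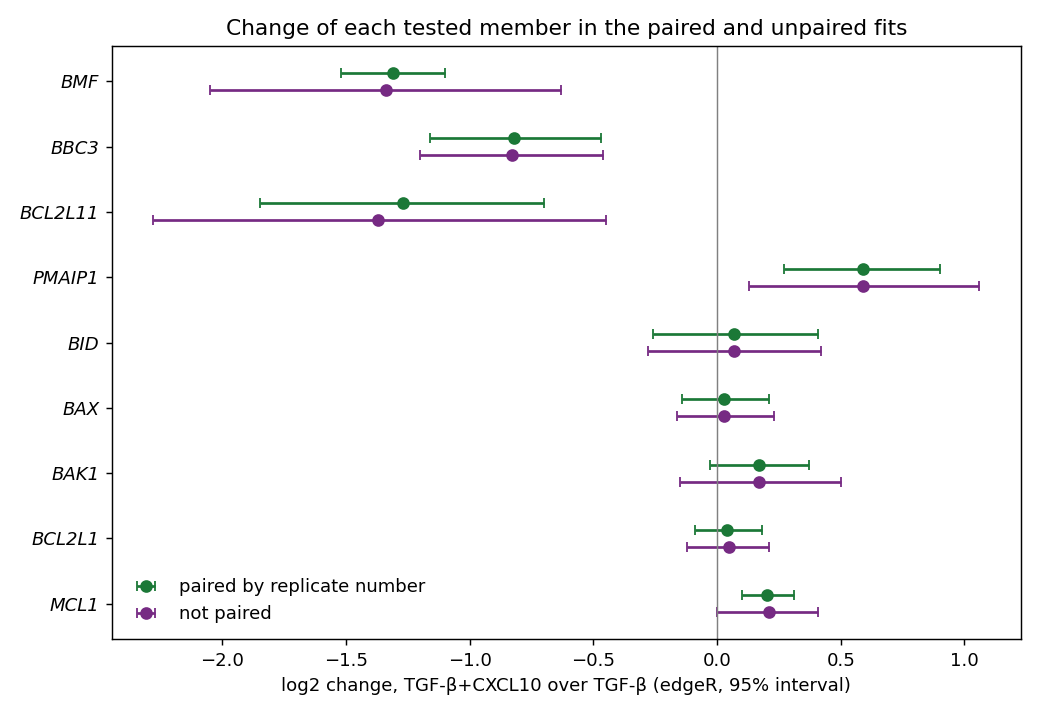
Log2 change of the 9 tested members, TGF-β+CXCL10 over TGF-β, with 95% intervals from edgeR fits paired by replicate number (green) and not paired (purple). The estimates differ little between the fits, at -1.31 and -1.34 for BMF, while the intervals of BMF and BCL2L11 are wider without pairing.

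The effector genes showed no call in either edgeR fit. BAX, which moves from the cytosol into the outer membrane to form pores, held 42.0, 41.0 and 42.0 CPM with CXCL10 and 38.5, 44.6 and 39.2 CPM with TGF-β alone. Its paired log2 difference was 0.03 (95% interval -0.14 to 0.21, adjusted p = 0.825, edgeR), and its sign turned to -0.01 when libraries were scaled by their totals alone.

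BAK1, the effector that sits in the outer membrane already, held 38.0, 27.9 and 35.7 CPM with CXCL10 and 35.8, 27.5 and 26.9 CPM with TGF-β alone. The groups overlapped, although 3 of 3 pairs were higher, by 0.09, 0.02 and 0.41. The paired difference was 0.17 (95% interval -0.03 to 0.37, adjusted p = 0.244, edgeR).

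Of the antiapoptotic genes MCL1, a short-lived protein that restrains BAK1 and binds BIM and NOXA, was the highest member. It held 275, 224 and 229 CPM with CXCL10, against 230, 200 and 201 CPM with TGF-β alone. TGF-β replicate 1 lay between the CXCL10 libraries, so the groups overlapped by a narrow margin. MCL1 rose in the paired fit by 0.20 (log2; SE 0.05, 95% interval 0.10 to 0.31, adjusted p = 0.0105, edgeR), a rise of 1.15-fold, with pairs at 0.26, 0.16 and 0.19.

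Unpaired, the MCL1 change was 0.21 (adjusted p = 0.245, edgeR), and without TGF-β replicate 1 it was 0.28 (adjusted p = 0.0417). Its paired call was lost without both libraries of replicate 3 (0.22, adjusted p = 0.0844, edgeR) and with limma-trend on log2(FPKM + 1) (adjusted p = 0.121).

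BCL2L1, which encodes BCL-xL, stood at 76.4, 67.9 and 75.5 CPM with CXCL10 and at 70.4, 70.3 and 72.4 CPM with TGF-β alone. The groups overlapped, with a paired log2 difference of 0.04 (95% interval -0.09 to 0.18, adjusted p = 0.69, edgeR). Its unpaired interval, from -0.12 to 0.21, was the narrowest of the 9 tested members.

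BCL2 itself was close to absent from these libraries. It had 1, 4 and 4 counts in CXCL10 libraries 1 to 3 and 2, 0 and 0 in TGF-β libraries 1 to 3, where a count of 0 allows up to 0.192 to 0.230 CPM for counting error only. Summed, 9 counts stood against 2, a depth-adjusted ratio of 4.73 with an exact binomial 95% interval of 0.979 to 45.0. That interval covers counting error only and leaves out the spread between libraries. The first pair went the other way, at -0.41 on the log2 scale. This gene was left out of the test for its low counts.

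**Figure D3:**
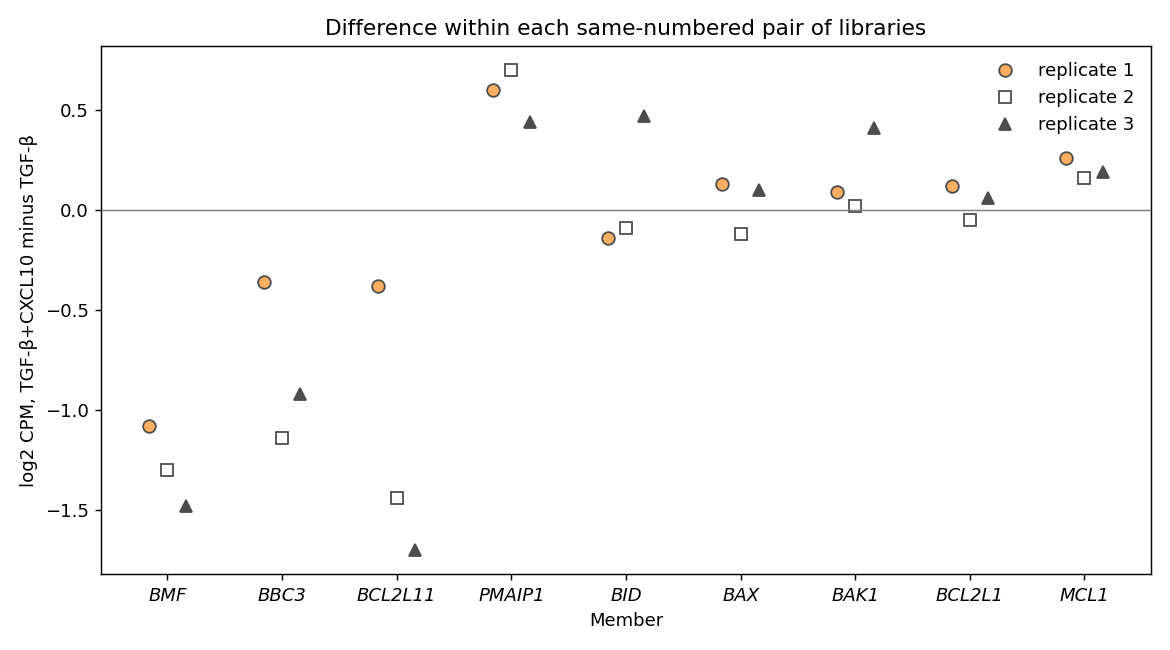
Difference in log2 CPM, TGF-β+CXCL10 minus TGF-β, within each of the 3 same-numbered pairs of libraries for the 9 tested members. All pairs are below 0 for BMF, BBC3 and BCL2L11 and above 0 for PMAIP1, BAK1 and MCL1, and the first pair is nearest to 0 for BBC3 (-0.36) and BCL2L11 (-0.38).

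Differences that had 1 sign in all 3 pairs were common in these data, at 25.5% of all tested genes downward and 24.7% upward. The 3 downward members and the 3 upward ones (BAK1 included) are to be read beside those shares.

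To set genes side by side, levels per length were taken from the deposited FPKM (the authors' unit per gene length and library size). MCL1 led in both groups, at 76.9 ± 10.6 FPKM with CXCL10 and 66.5 ± 2.77 FPKM with TGF-β alone (SD, n = 3 each). BAX followed at 42.7 ± 0.64 FPKM with CXCL10 and 45.6 ± 5.02 FPKM with TGF-β alone. BCL2L1 came next, at 27.3 ± 1.94 FPKM with CXCL10 and 27.5 ± 0.48 FPKM with TGF-β alone, and then BAK1, at 15.4 ± 2.39 FPKM with CXCL10 and 14 ± 2.10 FPKM with TGF-β alone. These 4 did not overlap with each other in either group.

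Below them by mean, the order of the BH3-only genes differed between the groups. With TGF-β alone BMF, at 5.84 to 14.8 FPKM, overlapped BAK1, at 12.6 to 16.4 FPKM. With CXCL10 it ran from BID (8.11 ± 1.02 FPKM) over PMAIP1 (5.97 ± 1.32), BMF (5.10 ± 1.47) and BBC3 (4.36 ± 0.51) to BCL2L11 (0.635 ± 0.169). With TGF-β alone it ran from BMF (11.7 ± 5.11 FPKM) over BBC3 (7.87 ± 1.41), BID (6.70 ± 0.94) and PMAIP1 (4.04 ± 0.82) to BCL2L11 (2.03 ± 1.72; SD, n = 3 each). Neighbours in these orders overlapped between libraries, except for BBC3 over BCL2L11 with CXCL10 and BID over PMAIP1 with TGF-β alone.

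As a share of the summed FPKM of the 5 BH3-only genes, BMF made up 14.9%, 21.7% and 26.5% in CXCL10 libraries 1 to 3, against 23.2%, 38.6% and 43.2% in TGF-β libraries 1 to 3. PMAIP1 made up 31.5%, 20.9% and 21.8% with CXCL10, against 19.5%, 8.56% and 11.7% with TGF-β alone. The BH3-only sum was 23.7, 24.5 and 24.3 FPKM with CXCL10 and 25.1, 38.3 and 33.7 FPKM with TGF-β alone. TGF-β replicate 1 thus had a sum near those of the CXCL10 libraries, and the higher sums came from the other TGF-β libraries.

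**Figure D4:**
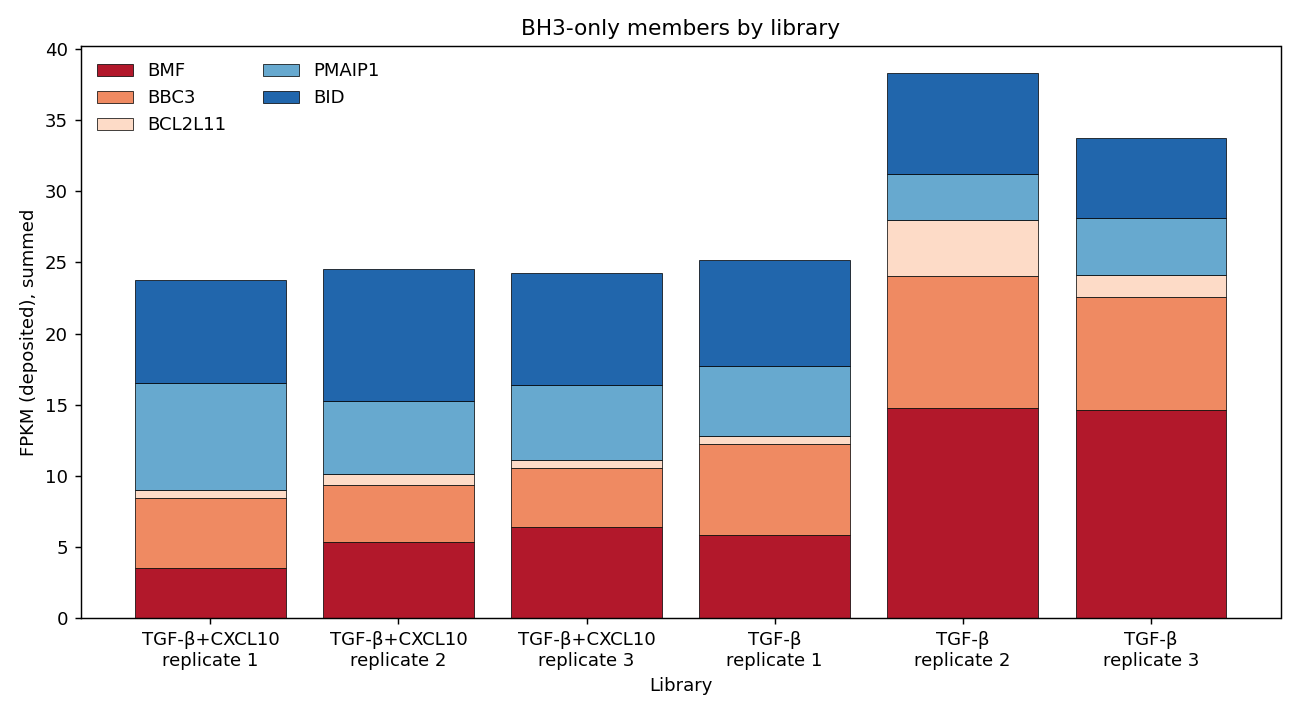
Deposited FPKM of the 5 BH3-only members stacked by library, the 3 TGF-β+CXCL10 libraries left of the 3 TGF-β libraries. The stacks reach 23.7 to 24.5 FPKM with CXCL10 and 25.1, 38.3 and 33.7 FPKM with TGF-β alone.

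Relative to the summed FPKM of BCL2, BCL2L1 and MCL1, the BH3-only sum was 20.3%, 25.5% and 24.5% with CXCL10, against 25.9%, 41.7% and 36.2% with TGF-β alone. The FPKM level of MCL1 was 25.3, 13.4 and 10.9 times that of BMF with CXCL10 and 11.9, 4.37 and 4.46 times with TGF-β alone. It was 11.9, 13.9 and 13.3 times that of PMAIP1, whose product binds it, with CXCL10 and 14.2, 19.8 and 16.5 times with TGF-β alone. These are ratios of transcript levels chosen with the results known, and they were given no test.

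For BCL2L11, BMF and BID the deposited FPKM and the counts differed in the size of the change. The gene length that count, FPKM and library total together imply was 3924, 4129 and 4474 bases for BCL2L11 in CXCL10 libraries 1 to 3, against 5069, 2528 and 5165 bases in TGF-β libraries 1 to 3. TGF-β replicate 2 had the shortest implied length, and its 3.93 FPKM stood against 1.60 FPKM in TGF-β replicate 3. The cause of this difference was not tested. The longest implied length was 2.04 times the shortest, a ratio that 3.27% of 11327 genes with at least 10 counts in every library reached, beside a median of 1.10.

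For BMF the implied lengths were 2999, 3855 and 2870 bases with CXCL10 and 3912, 3594 and 3679 bases with TGF-β alone. In FPKM the BMF groups overlapped, with 6.43 in CXCL10 replicate 3 and 5.84 in TGF-β replicate 1. BID ranged from 1097 to 1600 bases, and the 6 other tested members varied by at most 1.08 times. The log2 ratio of mean FPKM was -1.68 for BCL2L11, -1.20 for BMF and 0.28 for BID, and that of mean CPM -1.36, -1.34 and 0.07.

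Other genes of the death pathway were followed in 8 lists with 75 tested genes, of which 7 rose and 9 fell in the paired fit, where 9.71% of all tested genes rose and 8.04% fell. In the unpaired edgeR fit 0 of them passed, with 18 at an unadjusted p under 0.05 beside 20.5% of all genes, and unpaired DESeq2 called 3, DDIT3 and MYC among them, beside 3.41%. Without TGF-β replicate 1 the unpaired counts were 9 higher and 11 lower, beside 19.3% of all genes in either direction. Nothing particular to the lists is read from these counts. Values of single genes below are paired log2 changes with adjusted p from edgeR.

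Of 7 other BCL2-related genes 0 rose and 2 fell, with a median of -0.13. BOK, an effector-like relative of BAX, fell by 0.19 (adjusted p = 0.022), a call that was lost in the unpaired fit without TGF-β replicate 1 (-0.23, adjusted p = 0.0697, edgeR). BCL2L13, a mitophagy receptor, fell by 0.24 (adjusted p = 0.0231). The antiapoptotic BCL2L2 was at 0.23 (adjusted p = 0.164) and the mitophagy receptor BNIP3L at -0.13 (adjusted p = 0.17). BCL2L2 shares sequence with a readthrough gene to PABPN1 that has a row of its own, so its count is uncertain. BIK, HRK, BCL2A1, BCL2L10, BCL2L14 and BCL2L15 had at most 4 counts in any library.

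Of 11 genes of the apoptosome and mitochondrial release 2 rose and 0 fell, with a median of 0.14. CYCS, the gene of cytochrome c, held 85.1, 71.8 and 72.7 CPM with CXCL10 and 72.8, 49.2 and 53.8 CPM with TGF-β alone, a rise of 0.40 (adjusted p = 0.00192). The groups overlapped, since TGF-β replicate 1 reached the level of the CXCL10 libraries. VDAC2, an outer membrane channel that binds BAK1, rose by 0.22 (adjusted p = 0.01). APAF1, the scaffold of the apoptosome, was at 0.19 (adjusted p = 0.0876) and VDAC1 at 0.11 (adjusted p = 0.132).

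Of 9 caspases 0 rose and 1 fell, with a median of -0.14. The gene that fell was CASP4 (-0.36, adjusted p = 0.0162), an inflammatory caspase that senses lipopolysaccharide. The executioner CASP6 was at -0.34 (adjusted p = 0.26). CASP1, at 2.31 ± 1.48 CPM with CXCL10 and 3.88 ± 1.30 CPM with TGF-β alone (SD, n = 3 each), was at -0.80 (adjusted p = 0.256).

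Of 8 caspase inhibitors 1 rose and 1 fell, with a median of 0.09. CFLAR, which encodes cFLIP, the inhibitor of caspase-8 and not itself an IAP, rose by 0.49 (adjusted p = 0.000295). It held 77.3, 53.2 and 52.9 CPM with CXCL10 and 54.5, 36.9 and 39.0 CPM with TGF-β alone, so that replicate 1 was the highest library of each group and the groups overlapped. BIRC7 fell by 0.66 (adjusted p = 0.0417), NAIP was at -0.49 (adjusted p = 0.051) and BIRC6 at 0.14 (adjusted p = 0.0951).

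Of 10 death receptor and adaptor genes 0 were called, with 1 at an unadjusted p under 0.05 in the unpaired edgeR fit, 0 by unpaired DESeq2 and a median of -0.08. FADD, the adaptor that recruits caspase-8, was at 0.19 (adjusted p = 0.101), the TRAIL receptor TNFRSF10A at 0.22 (0.112), FAS at -0.18 (0.142) and the TNF receptor TNFRSF1A at -0.10 (0.198).

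Of 9 transcription factors known to act on BH3-only genes 2 rose and 5 fell, with a median of -0.26. DDIT3, the gene of CHOP, which drives BCL2L11 and BBC3 under endoplasmic reticulum stress, fell by 0.78 (adjusted p = 0.00028). Of its rows in the table the one with the most counts was used. Its groups overlapped, with TGF-β replicate 1 at 17.3 CPM and the CXCL10 libraries at 12.2, 19.4 and 17.5 CPM. ATF4 fell by 0.22 (adjusted p = 0.00574) and MYC rose by 0.63 (adjusted p = 0.000185). Named after their values were seen, FOXO3, a driver of BCL2L11 and BBC3, was at -0.26 (adjusted p = 0.0212), FOXO4 at -0.45 (0.0318) and JUN at 0.23 (0.00824). FOXO1, at -0.31 (0.0908), and E2F1, at 0.23 (0.703), were not called.

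Of 11 ubiquitin ligase and deubiquitinase genes that act on MCL1, BIM or NOXA 0 were called, with 0 at an unadjusted p under 0.05 in the unpaired edgeR fit, 0 by unpaired DESeq2 and a median of -0.06. The deubiquitinase USP13 was at -0.39 (adjusted p = 0.0728), USP9X at -0.13 (0.0905), UBE2F at 0.16 (0.183) and TRIM2 at -0.25 (0.229). Without TGF-β replicate 1 USP13 passed the unpaired test (-0.59, adjusted p = 0.0229, edgeR).

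Of 10 genes of the tethers that hold BIM, BMF or BAD away from mitochondria 2 rose and 0 fell, with a median of 0.11. SFN, a 14-3-3 protein, rose by 0.48 (adjusted p = 0.0026) and YWHAZ by 0.17 (adjusted p = 0.0148), while YWHAB and YWHAG were at 0.14 each (adjusted p = 0.0531 and 0.0593). Named after their values were seen, the dynein light chains DYNLL1 and DYNLL2 were at 0.13 (0.152) and 0.03 (0.839).

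**Figure D5:**
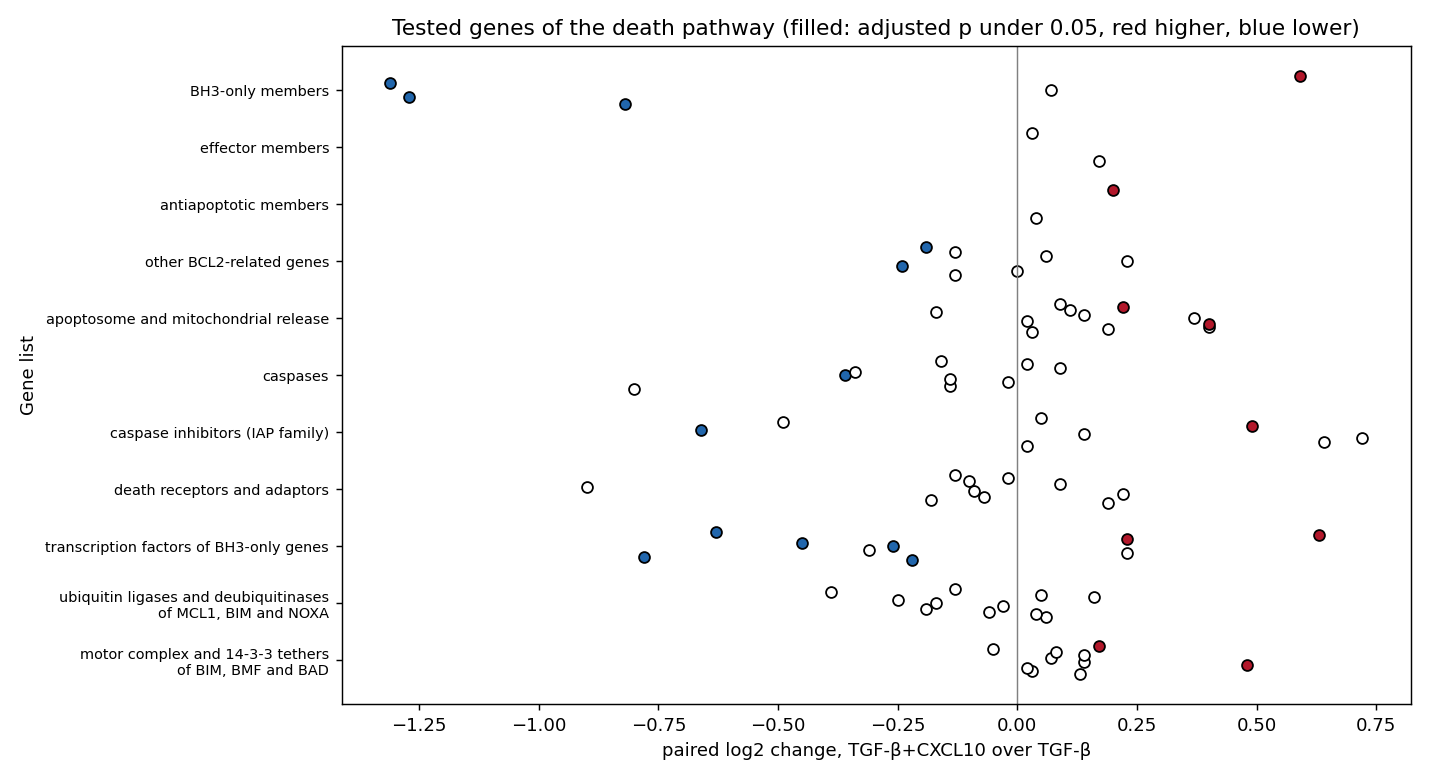
Paired log2 change, TGF-β+CXCL10 over TGF-β, of each tested gene in the member groups and the 8 other lists; filled points passed an adjusted p of 0.05 (red higher, blue lower) and each point is a gene. BMF and BCL2L11, at -1.31 and -1.27, are the lowest points drawn.

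The gene whose log2 CPM followed each member most closely over the 6 libraries was looked up among 9704 others with a mean of at least 5 CPM (9705 for BCL2L11), as a description. By Pearson r this was AJUBA for BMF (0.999), HSD3B7 for BBC3 (0.998), EEF2 for BCL2L11 (0.997), MFN2 for PMAIP1 (0.998) and RIOK2 for MCL1 (0.998). These values rest on 6 libraries that share a treatment and a replicate axis. High values were frequent for some members and rare for others. BMF had 572 genes at an r of at least 0.95, PMAIP1 494, MCL1 319, BCL2L11 263 and BBC3 49. The count was 7 for BID, 4 for BAX, 10 for BCL2L1 and 53 for BAK1, whose closest genes were NDUFS6, TTC8, SUPT16H and ARPC5L.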

How the data were processed

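Per gene and library the authors deposited a raw count and an FPKM value. The file headers also name the authors' mean FPKM per group, their log2 ratio of these means, and a p-value with its adjusted p. Per the submitters' processing notes the builds are GRCm38 and mm10, while 0 of the 20323 rows match the mouse annotation by identifier. Aligner, counting tool and strand setting are not given in the sources at hand. No sequence or coordinate is printed, since the reference at hand is mouse. The authors' p-value equalled that of an unpaired DESeq2 Wald test over the 15691 rows with a count, within 4.80e-06 on the log10 scale, so that their table and unpaired DESeq2 are a single test with different adjustment.

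Raw counts went into edgeR 4.0.16 under R 4.3.3 (quasi-likelihood, TMM, filterByExpr at a count of 10 and a total of 15), which kept 11970 genes. Standard errors are the log2 change over the root of F. CPM values are TMM-scaled, and log2 CPM uses a prior count of 2. DESeq2 1.42.0 and limma 3.58.1 served as alternatives, and the edgeR fits were run on simulated data as a check of the code. For the unpaired fit the simulated data held no replicate effect, so that check does not show how it performs on these libraries. For the paired fit they held a shift of replicate 1 in both groups, which the block removes. That check thus cannot show whether pairing by number is right for these libraries. The unpaired fit is the principal one. Between the groups, the deviations of libraries with the same number correlated at 0.330, 0.121 and 0.163, each over 0.1, so the fit with the replicate block is printed beside it. Number 2 set against number 3 gave 0.0825 and 0.0803, little below the same-numbered values of 2 and 3. Number 1 set against the others gave -0.223 to -0.165, so mainly number 1 stood out. The pairing by number comes from the data, not the labels. Members, lists and named genes (the members, up to 4 genes per list with the lowest paired p, and the closest gene of each member) were chosen with earlier results of these data known. Values of some single list genes are not reported here; the list counts include them.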

Additional observations from a re-analysis of the deposited data

How the results depend on the processing

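The calls depended on the pairing and on TGF-β replicate 1. With the replicate block 5 members and 2124 genes were called. Scaled by library totals with the replicate block it was 5 and 2236, with no filter and the replicate block 5 and 2436, and with genes averaging 5 CPM or more and the replicate block 4 and 2205, since BCL2L11 was then not tested. DESeq2 called 1 and 307 unpaired and 4 and 1053 with the replicate block. Limma-trend with the replicate block called 2 and 689 on log2(FPKM + 1) and 2 and 679 on log2(FPKM + 0.1). Leaving out single libraries without pairing gave 0 to 5 members and 0 to 2348 genes, above 0 only without TGF-β replicate 1. DESeq2 without that library, an alternative added after the data were seen, gave 5 and 1831. Leaving out both libraries of a number with the replicate block gave 3 to 5 members and 904 to 2846 genes, with 4 and 1241 for number 2. Unpaired, 0 members and 0 genes were called with RLE factors, library totals, no filter or limma-trend.

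Only members without a call turned their sign. BAX was at -0.01 with library totals, with and without the block, at -0.09 in the 3 limma-trend fits, at -0.01 without TGF-β replicate 1 and without both libraries of replicate 1, and at -0.00 in DESeq2 without TGF-β replicate 1. BCL2L1 was at -0.01, -0.01 and -0.02 in the limma-trend fits, and BID at -0.04 without TGF-β replicate 3 (up to 0.16 without other single libraries) and at -0.11 without both libraries of replicate 3. Of 196 single-member values under alternatives 13 turned sign and 50 passed the threshold where the unpaired fit did not. Depth limits BCL2, with at most 4 counts in a library, and BCL2L11, with at least 31.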
